A study of Homo sapiens with 4 samples.

Results

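The miR-183, miR-96 and miR-182 cluster was followed through its guide strands, hsa-miR-183-5p, hsa-miR-96-5p and hsa-miR-182-5p, in small RNA sequencing of parental and acquired radioresistant colorectal cancer cells. The members were taken by name, and these 3 mature miRNAs were listed in every library, among 1474 miRNAs listed in at least 1 of the 4 libraries. Both parental lines, HCT116 and RKO, are of human colorectal cancer and were sequenced without irradiation. HCT116-R and RKO-R were derived from them by repeated X-ray fractions of 4 Gy up to a total of 40 Gy, with a later recovery period of some weeks that was free of exposure. Each line gave 1 library, with 6818497 counts in HCT116-R, 6823240 in HCT116, 6913146 in RKO-R and 7140460 in RKO. There was no replicate of any line, and HCT116-R and RKO-R are each the product of a single selection. The tests below therefore compare libraries and rest on an assumed spread, a biological coefficient of variation (BCV) of 0.2, which is the value in the study's methods.

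The 3 miRNAs are made from hairpins of one locus and are generally regarded as products of a common primary transcript, from which the enzyme Drosha cuts the hairpins before Dicer releases the mature strands. A mature miRNA recognizes messenger RNAs mainly through its seed, the bases near its 5′ end. The cluster is best known from sensory organs, where it is needed for hair cells and photoreceptors, and it is raised in many carcinomas. It has been linked to DNA repair, since miR-182 is described as a regulator of BRCA1, miR-96 as a regulator of REV1, and all 3 as regulators of FOXO transcription factors.

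The mature sequences are shown because the seeds set the members apart although the names group them. They are those of RefSeq (GRCh38.p14), where 3 of 3 members were matched by name. They are written 5′ to 3′ with the seed, bases 2 to 8, in capitals.
hsa-miR-182-5p: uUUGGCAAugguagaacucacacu
hsa-miR-96-5p: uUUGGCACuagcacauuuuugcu
hsa-miR-183-5p: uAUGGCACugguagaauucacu

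With positions counted from 1 at the 5′ end, the seed of miR-182-5p differed from that of miR-96-5p at 1 base (A8C) and from that of miR-183-5p at 2 bases (U2A and A8C). The seeds of miR-183-5p and miR-96-5p differed at 1 base (A2U). Thus no seed was shared by a pair of members. Over the whole strand the order of likeness was another one. miR-182-5p and miR-183-5p had the same base at 18 of 22 positions, whereas miR-96-5p had 12 of 23 positions in common with miR-182-5p and 13 of 22 with miR-183-5p. Of the other mature miRNAs in the table, 1 had a member's seed, namely miR-1271-5p, which carries the seed of miR-96-5p. It was close to absent, with 14 counts in HCT116-R, 9 in HCT116 and 1 in each of RKO and RKO-R, so nearly all reads with that seed were those of miR-96-5p.

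On GRCh38 the hairpins lie on the minus strand of chromosome 7 and no other annotated gene overlaps them. In the direction of transcription, MIR183 (chr7:129774905-129775014) comes first, MIR96 (chr7:129774692-129774769) follows after 135 bases, and MIR182 (chr7:129770383-129770492) after a further 4199 bases. The span of 4632 bases holds no other annotated gene. The nearest protein-coding genes are NRF1, at 13300 bases on the side of MIR182, and UBE2H, at 55717 bases on the side of MIR183. The hairpins of MIR96 and MIR182 are shown to place the guide strand, in capitals, in its precursor, with the 3p strand in the opposite arm. In MIR96 the guide took bases 9 to 31 of 78 and the 3p strand bases 52 to 73, and in MIR182 the guide took bases 23 to 46 of 110 and the 3p strand bases 67 to 87.
MIR96: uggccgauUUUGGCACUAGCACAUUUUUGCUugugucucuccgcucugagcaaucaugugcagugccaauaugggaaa
MIR182: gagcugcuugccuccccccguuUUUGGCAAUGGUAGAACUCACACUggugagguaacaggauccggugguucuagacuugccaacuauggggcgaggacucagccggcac

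All 3 guide strands were abundant. Levels are given as counts per 1000000 counts of the library (CPM), and the 95% Wilson intervals cover counting error only. hsa-miR-182-5p was at 23631 CPM in HCT116-R (23517 to 23745), 12184 in HCT116 (12102 to 12267), 9015 in RKO (8946 to 9085) and 8992 in RKO-R (8922 to 9063). HCT116-R was the high library, 1.94 times the next one, and RKO and RKO-R could not be told apart by counting error. The miRNA ranked 11th, 22nd, 24th and 23rd in these libraries.

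hsa-miR-183-5p was at 11005 CPM in HCT116-R (10927 to 11084), 10432 in RKO-R (10356 to 10508), 10294 in HCT116 (10219 to 10370) and 2567 in RKO (2530 to 2605). Only RKO stood apart, with the other libraries within 1.07 times of each other and at least 4.01 times above it. The intervals of HCT116 and RKO-R overlapped. miR-183-5p ranked 24th in HCT116, 24th in HCT116-R and 20th in RKO-R, but 43rd in RKO.

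hsa-miR-96-5p, the least abundant member in 3 of the 4 libraries, was at 3712 CPM in HCT116-R (3666 to 3758), 2778 in RKO (2739 to 2816), 2407 in HCT116 (2371 to 2444) and 2017 in RKO-R (1984 to 2051). It varied least, with 1.84 times between HCT116-R and RKO-R, and its 4 counting intervals did not overlap. The corresponding ratio of the highest to the lowest library was 2.63 for miR-182-5p and 4.29 for miR-183-5p. In RKO, miR-96-5p exceeded miR-183-5p.

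**Figure D1:**
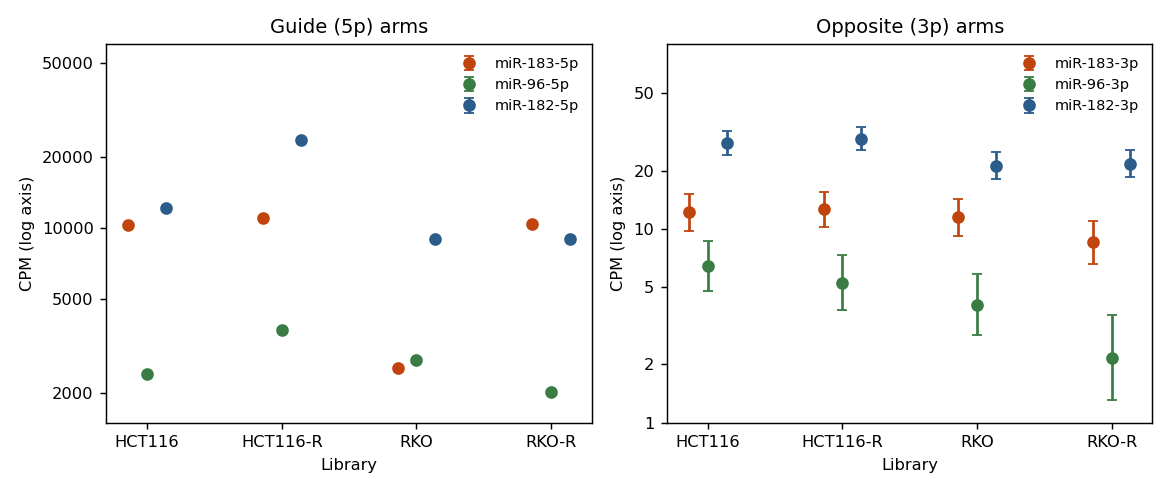
Level of the guide (5p, left) and opposite (3p, right) strands in each library, in CPM on log axes, with 95% Wilson intervals that cover counting error only. miR-183-5p was low in RKO alone, at 2567 CPM, while miR-183-3p lay between 8.53 and 12.6 CPM in the 4 libraries.

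Summed over the 3 members, the cluster took 3.83% of the counts in HCT116-R, 2.49% in HCT116, 2.14% in RKO-R and 1.44% in RKO. The sum was thus higher in each radioresistant library than in its parental one. In HCT116-R most of the added counts were those of miR-182-5p, which went from 83136 to 161126 counts. In RKO-R they were those of miR-183-5p, which went from 18332 to 72117 counts, whereas miR-182-5p was at 64374 and 62165 counts and miR-96-5p at 19833 and 13947.

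The division of the sum among the members was therefore not fixed. miR-182-5p held 61.6% of it in HCT116-R, 49% in HCT116, 41.9% in RKO-R and 62.8% in RKO. miR-183-5p held 28.7%, 41.4%, 48.7% and 17.9% in the same order, and was the leading member in RKO-R only. miR-96-5p held 9.68%, 9.67%, 9.41% and 19.3%. Its share was close to constant in 3 libraries and higher in RKO, where that of miR-183-5p was lowest. Every share had a Wilson interval within 0.3 percentage points of its value. The level of one miRNA against another in a library also depends on how well each ligates and amplifies, so the ratios were compared between libraries and not read as copy numbers.

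**Figure D2:**
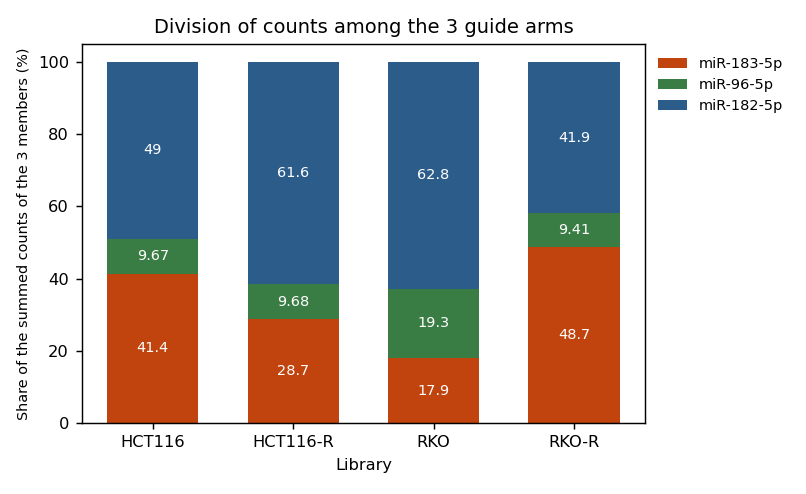
Share of each member in the summed counts of the 3 members, in percent, for the 4 libraries. miR-183-5p made up 17.9% in RKO and 48.7% in RKO-R, and miR-182-5p 62.8% and 41.9%.

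The ratio of miR-183-5p to miR-182-5p was 0.466 in HCT116-R, 0.845 in HCT116, 1.16 in RKO-R and 0.285 in RKO. Between RKO and RKO-R this ratio changed by 2.03 on the log2 scale (SE 0.58 at the assumed BCV), a factor of 4.07. In HCT116-R it was lower than in HCT116, by -0.86 (SE 0.58). The ratio of miR-96-5p to miR-182-5p moved less, with a change of -0.46 in the RKO pair and -0.33 in the HCT116 pair (SE 0.58 each). Such ratios within a library do not depend on how the library was scaled.

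To find whether the members differed between radioresistant and parental cells, each pair was tested with the exact test of edgeR and P values were adjusted over all miRNAs of the pair (Benjamini-Hochberg). Compared with HCT116, none of the 3 members was called in HCT116-R at an adjusted P under 0.05, where 4.01% of the 1322 miRNAs tested were called. The count of 0 became 1, miR-182-5p, at an unadjusted P under 0.05 by the same test. For miR-182-5p the log2 fold change was 0.93 (SE 0.41, exact test P = 0.024, adjusted P = 0.314), a fold of 1.91. At the smaller BCV of 0.1, both miR-182-5p (adjusted P = 0.000142) and miR-96-5p (adjusted P = 0.0322) passed. The shares of all miRNAs called at these looser settings were not counted, so the members passing there have no background beside them. The log2 fold change of miR-96-5p was 0.60 (SE 0.41, adjusted P = 0.714) and that of miR-183-5p 0.07 (SE 0.41, 95% interval -0.73 to 0.87).

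Compared with RKO, 1 of the 3 members was called in RKO-R, against 5.54% of the 1155 miRNAs tested. miR-183-5p was upregulated, and its log2 fold change was 2.26 (SE 0.41, 95% interval 1.46 to 3.06, adjusted P = 1.04e-05, edgeR exact test), a fold of 4.79. The log2 fold change of miR-182-5p was 0.23 (SE 0.41, 95% interval -0.57 to 1.03), and that of miR-96-5p was -0.22 (SE 0.41, 95% interval -1.02 to 0.58). The TMM normalization of this pair shifted the median of all miRNAs by 0.24 on the log2 scale, from -0.22 with library totals to 0.02. With library totals the log2 fold change of miR-183-5p was 2.02 (adjusted P = 0.000124), and that of miR-182-5p turned from 0.23 to -0.0037. The call of miR-183-5p was lost at a BCV of 0.4 and when the BCV was estimated over all libraries, which gave 0.482. That estimate came from the fit of line and radioresistance, with 1 residual degree of freedom. It reflects how far the RKO and HCT116 pairs disagreed, also in miR-183-5p, and not the spread between replicates.

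**Figure D3:**
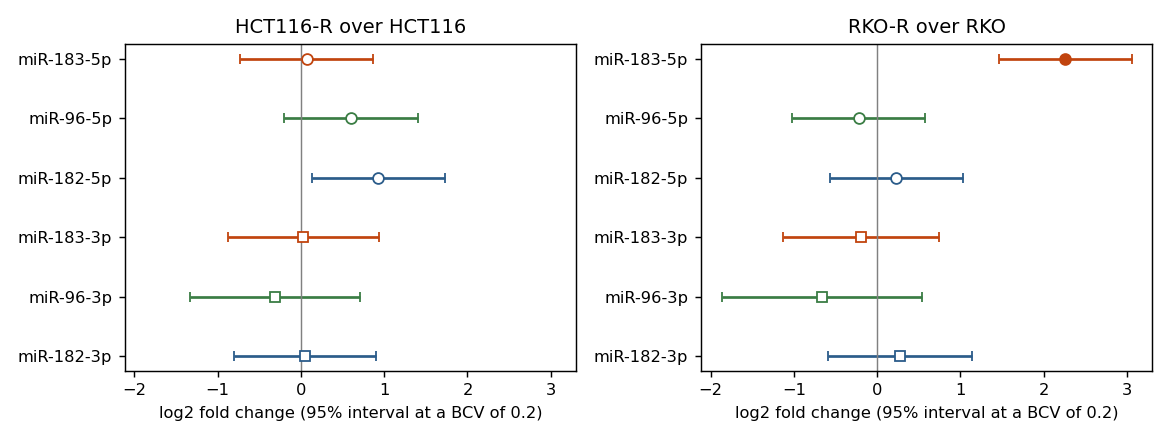
The log2 fold change of the radioresistant over the parental library for the guide strands (circles) and the 3p strands (squares), with 95% intervals at the assumed BCV of 0.2. The filled symbol marks the call at an adjusted P under 0.05, which is miR-183-5p in RKO-R at 2.26, and all other symbols are open.

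The difference between the pairs was itself tested in a model of all 4 libraries at the same BCV, in which 4.75% of the 1474 miRNAs were called. For miR-183-5p the log2 fold change was larger in the RKO pair than in the HCT116 pair by 2.15 (SE 0.58, adjusted P = 0.00781, edgeR likelihood ratio test). The differences were -0.73 (SE 0.58, adjusted P = 0.689) for miR-182-5p and -0.86 (SE 0.58, adjusted P = 0.559) for miR-96-5p. Fitted over both pairs with the cell line as block, radioresistance gave no call among the members, and 0.678% of the 590 miRNAs that passed the filter were called (edgeR quasi-likelihood test, 1 residual degree of freedom). The log2 fold changes were 1.18 for miR-183-5p (adjusted P = 0.998), 0.60 for miR-182-5p and 0.21 for miR-96-5p, and none was at an unadjusted P under 0.05 or called by the Wald test of DESeq2.

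Between the cell lines, the quasi-likelihood fit called none of the members, where 29.5% of the same miRNAs were called. The log2 fold changes of the RKO libraries over the HCT116 libraries were -0.93 for miR-182-5p (adjusted P = 0.167), -1.05 for miR-183-5p (adjusted P = 0.239) and -0.35 for miR-96-5p (adjusted P = 0.648), and no member was at an unadjusted P under 0.05 or called by the Wald test of DESeq2. The exact test at the assumed BCV, run line against line, called a different member in each comparison. miR-183-5p was lower in RKO than in HCT116, with -2.13 on the log2 scale (SE 0.41, adjusted P = 6.88e-06), in a comparison with 25.5% of miRNAs called. RKO-R was lower than HCT116-R in miR-182-5p by -1.06 (SE 0.41, adjusted P = 0.0456), with 23.2% called. For miR-183-5p the latter comparison gave 0.26 (SE 0.41, adjusted P = 0.811), and the former gave 0.08 for miR-96-5p and -0.56 for miR-182-5p. These comparisons share libraries with those of the radioresistant over the parental lines.

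The 3p strands of the hairpins, which are mostly discarded when the guide is loaded, gave a second reading of each hairpin at far lower depth. The strands of MIR183 are shown because they did not move alike, again 5′ to 3′ with bases 2 to 8 in capitals.
hsa-miR-183-5p: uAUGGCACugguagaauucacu
hsa-miR-183-3p: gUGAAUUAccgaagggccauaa

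miR-183-3p had 86 counts in HCT116-R, 83 in HCT116, 59 in RKO-R and 82 in RKO. RKO was thus close to the HCT116 libraries in this strand, and RKO-R had the fewest counts, with a log2 fold change of -0.19 (95% interval -1.13 to 0.74) against RKO, beside the 2.26 of miR-183-5p. There were 846 reads of the 5p strand for each read of the 3p strand in HCT116, 873 in HCT116-R, 1222 in RKO-R and 224 in RKO. The 3p share of the hairpin's counts was 0.445% in RKO (Wilson interval 0.359 to 0.552) and 0.082% in RKO-R (0.063 to 0.105).

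miR-182-3p had 189, 199, 151 and 150 counts in HCT116, HCT116-R, RKO and RKO-R. In HCT116-R, where the guide strand was at 0.93, its log2 fold change was 0.05 (95% interval -0.80 to 0.90), and the 5p to 3p ratio was 440 in HCT116 and 810 in HCT116-R. In RKO and RKO-R that ratio was 426 and 414. miR-96-3p had 44, 36, 29 and 15 counts, and ratios of 373, 703, 684 and 930. None of the 3p strands was called in either pair.

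Spread of this size was set beside that in other groups of neighbouring miRNAs, using members with at least 100 counts in both libraries of the pair. Within the cluster, the highest and lowest log2 fold change lay 2.48 apart in the RKO pair and 0.86 apart in the HCT116 pair. In a list of well-known co-transcribed groups, made by hand and not complete, the distance was 0.02 to 0.73 (median 0.36, 11 groups) in the HCT116 pair and 0.01 to 0.85 (median 0.35, 10 groups) in the RKO pair. A wider comparison, added after the data had been seen, took every miRNA with a single position in the RefSeq table, 1 strand per hairpin, and joined those less than 10000 bases apart on the same strand. In the HCT116 pair 4 of 19 such groups were then wider than the cluster, the widest being miR-99a-5p with let-7c-5p at 1.00. In the RKO pair 0 of 14 were, with a highest distance of 1.56. A strand with several positions could not enter, so its hairpin was represented by the other strand, whereas the members entered by their guide strands. In the HCT116 pair this held for miR-29b-1-5p, in a group at 0.99, and miR-30c-1-3p, in a group at 0.87. In the RKO pair it held for miR-92a-1-5p, in the group at 1.56.

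The comparison also depended on the filter. With at least 100 counts in either library, 6 of 22 groups were wider in the HCT116 pair, up to 6.14 for miR-421 with miR-374b-5p, which has an annotated miRNA on the opposite strand. In the RKO pair 1 of 17 was wider, at 3.13, and it held miR-100-5p and miR-10526-3p. By this wider comparison, which mixes guide and other strands, the distance of the cluster was not exceptional in the HCT116 pair. No group of the hand-made list exceeded it in that pair. Groups differ in their number of members, and the distance grows with it.

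**Figure D4:**
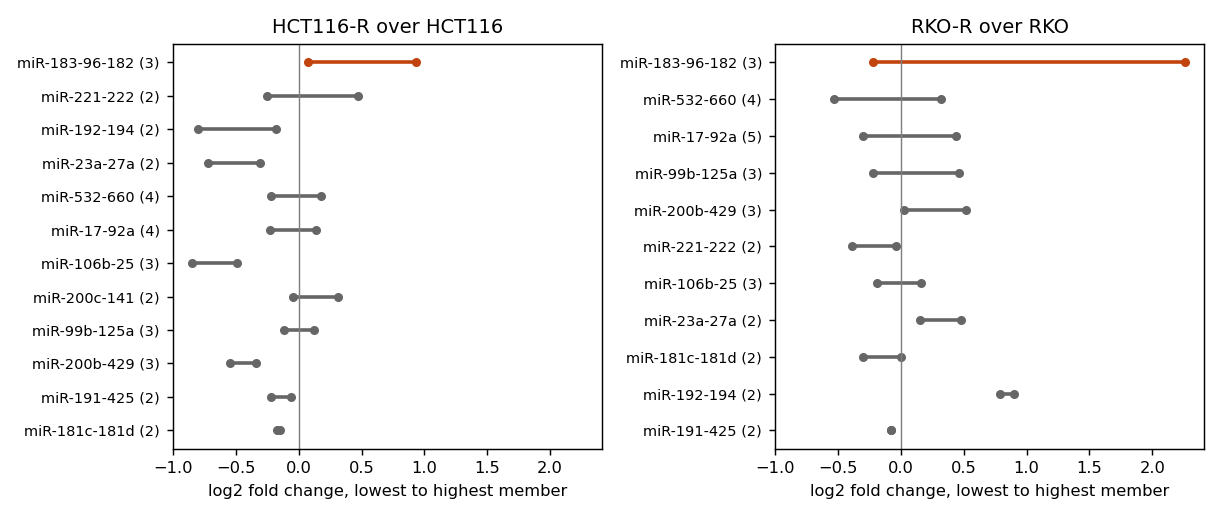
Lowest and highest log2 fold change within each group of the hand-made list of co-transcribed miRNAs, with the number of members used in brackets and the cluster of miR-183, miR-96 and miR-182 in red. In the RKO pair the cluster reached from -0.22 to 2.26.

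Other miRNAs of similar or higher abundance in at least 1 library of the pair were read beside the members. In the RKO pair, 42 other miRNAs reached at least 19833 counts in a library and 4 of them (9.52%) were called. miR-652-3p rose by 2.17 (SE 0.41, adjusted P = 2.49e-05), and miR-30d-5p was downregulated, at -1.51 (SE 0.41, adjusted P = 0.0107). The others were miR-7-5p and miR-3529-3p, which are encoded on opposite strands of one place and whose counts cannot be told apart if strand was not used in counting. One of the 42, miR-3529-3p, rose by at least as much as miR-183-5p. In the HCT116 pair, 3 of 38 others with at least 25308 counts in a library (7.89%) were called, and they were miR-7-5p, miR-3529-3p and miR-31-5p. Each miRNA entered by the higher of its counts in the pair, which favours miRNAs that differ between the libraries. All 4 called in the RKO pair were below 19833 counts in the other library. These percentages are therefore not a rate of calls at that abundance.

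The profile of the cluster over the 4 libraries, taken as the mean of the members' log2(CPM + 1) values after centring each on its own mean, was most like that of miR-576-5p among 346 miRNAs with at least 100 counts in a library, with a root mean square difference of 0.15. miR-576-5p was at 810 CPM in HCT116-R, 586 in HCT116, 384 in RKO-R and 342 in RKO. miR-1292-5p (0.22), miR-203a-3p (0.25), miR-3909 (0.27) and miR-590-3p (0.28) came next. Between the members the difference was 0.35 for miR-182-5p and miR-96-5p, 0.78 for miR-182-5p and miR-183-5p, and 0.96 for miR-183-5p and miR-96-5p. These pairs were fixed, whereas the values above were the smallest of many and were taken to a mean profile. They can therefore not be set against each other. With 4 libraries these likenesses are a description.

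Other miRNAs known for regulating DNA repair or the response to DNA damage were taken from a list of 26, of which 23 were listed in at least 1 library. In HCT116-R, 1 of the 23 tested was upregulated and 1 downregulated, where 4.01% of all miRNAs were called, and the median log2 fold change of the list was -0.18 beside 0.07 for all miRNAs. In RKO-R, 4 of 23 were upregulated and 1 downregulated, where 5.54% of all miRNAs were called, with a median of 0.44 beside 0.02 for all miRNAs. miR-155-5p, an inflammatory miRNA described as a regulator of mismatch repair, had 14 counts in the parental HCT116 library and 157 in HCT116-R (log2 fold change 3.45, SE 0.57, adjusted P = 4.21e-08). It was far more abundant in RKO and RKO-R, at 4749 and 5728 CPM, where it was not called.

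miR-210-3p, the main miRNA of the hypoxia response, had 51 counts in the parental RKO library and 336 in RKO-R (7.14 and 48.6 CPM, adjusted P = 6.01e-08). miR-146a-5p, which restrains innate immune signalling, went from 140 to 308 counts (1.42, SE 0.43, adjusted P = 0.0328). miR-34c-5p, a p53 target, had 10 counts in RKO-R and 0 in RKO, and was called. With RKO set to the limit of 3 counts that a count of 0 allows, the ratio was 3.44. This takes the 10 counts as exact, so it is not a lower limit of the fold. These rises were at 48.6 CPM or less, far below the 10432 CPM that miR-183-5p reached.

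miR-107 had 3 counts in RKO-R and 27 in RKO, a ratio of 8.71 (exact 95% interval 2.68 to 44.9). Its relative miR-103a-3p was called in both pairs in opposite directions, with 275 and 90 counts in HCT116 and HCT116-R (log2 fold change -1.63, adjusted P = 0.0104) and 1001 and 7928 counts in RKO and RKO-R (3.27, adjusted P = 4.10e-11). That value is uncertain, since miR-103b is annotated on the opposite strand and the use of strand in counting was not given in the sources used here. The most abundant members of the list, miR-222-3p, miR-21-5p, miR-100-5p and miR-16-5p, were not called in either pair, with log2 fold changes between -0.81 and 0.69.

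Sequence matches to the seeds were counted in the longest annotated 3′ untranslated region of 6 genes of DNA repair and FOXO signalling, whose messenger RNAs were not measured here. The motifs are the reverse complements of bases 2 to 8, TTGCCAA for miR-182-5p, GTGCCAT for miR-183-5p and GTGCCAA for miR-96-5p, searched on the transcribed strand only, and no position can match more than one of them. Of 19120 such regions, 13.6%, 10.8% and 9.18% held at least 1 match, in that order. REV1, a polymerase that bypasses DNA lesions, held 1 match each for miR-183-5p and miR-96-5p. FOXO3 held 2 matches for miR-182-5p and 1 for miR-96-5p, FOXO1 held 2 each for miR-183-5p and miR-96-5p, and the kinase gene ATM held 1 each for miR-182-5p and miR-96-5p. No match to these letters was found in the regions of BRCA1 and BRCA2. The regions differed in length, with 4982 bases in FOXO3, 3594 in ATM, 3382 in FOXO1, 1496 in BRCA2, 1383 in BRCA1 and 766 in REV1. Neither the matches nor the percentages were adjusted for length. The sites of REV1 and the first of FOXO3 are shown to set the motifs, in capitals, beside the seeds above (GRCh38).
REV1 for miR-183-5p, chr2:99401199-99401220, minus strand: gctctctgatagctGTGCCATa
REV1 for miR-96-5p, chr2:99401088-99401109, minus strand: tttcttttcaaaaaGTGCCAAa
FOXO3 for miR-182-5p, chr6:108679850-108679871, plus strand: acagagaaaaccctTTGCCAAa

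Markers of epithelial, blood, stromal and endothelial cells were read beside these results. Of 9 epithelial markers, 8 were at or above 1 count in every library but miR-200c-3p and miR-141-3p were low in the RKO lines. miR-200c-3p was at 42717 CPM in HCT116 and 42008 in HCT116-R but at 90.9 in RKO and 206 in RKO-R, where it was called against RKO (adjusted P = 0.0241). The 5 blood cell markers summed to between 12.4 and 30.6 CPM, and 1 of them, miR-223-3p, was called, lower in HCT116-R. Of 6 stromal and endothelial markers, 4 were called higher in RKO-R and 3 lower in HCT116-R, and 3 were at 0 in RKO, where 5.54% of all miRNAs were called in the RKO pair and 4.01% in the HCT116 pair. Their sum, mostly miR-126-3p, was 3614 CPM in HCT116-R, 4320 in HCT116, 8112 in RKO-R and 8339 in RKO. The 4 stromal and endothelial markers called higher in RKO-R reached 75.5 CPM at most. They were miR-143-3p and the 3 called lower in HCT116-R, namely miR-199a-3p, miR-199a-5p and miR-214-3p. As miR-199a-3p and miR-199a-5p are opposite strands of the same hairpin, these counts are not of independent markers. The part of any of these in the levels of the cluster was not tested.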

How the data were processed

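Small RNA of 18 to 30 nt from 4 colorectal cancer lines was sequenced, with 1 library per line, after ligation of adapters with unique molecular identifiers. The authors deposited counts of reads per mature miRNA, not normalized. Their processing notes name Bowtie2 and hg38, while the annotation release, the use of strand and the collapsing of identifiers are not given in the sources used here. Groups came from the labels and doses from the methods. Absent miRNAs were given 0 counts. PCR copies are not independent molecules, so intervals cover counting error only.

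CPM was computed on library totals. Pairs were tested with edgeR 4.0.16 in R 4.3.3 (exact test, TMM within the pair, BCV of 0.2, miRNAs absent from both libraries left out). SEs and intervals derive from the counts and this BCV. All 4 libraries were fitted with quasi-likelihood (line and radioresistance, 1 residual degree of freedom, edgeR's filter on low counts) and, for the difference between pairs, the likelihood ratio test at a BCV of 0.2. The tests were tried on simulated data drawn at the same BCV of 0.2, which cannot show how they perform at another spread. Alternatives were other BCVs, unadjusted P values, scalings (library totals, size factors of DESeq2 1.42.0, TMM over all 4 libraries), filters, the likelihood ratio and DESeq2 Wald tests, line against line exact tests, other denominators, arms summed and, added after the data had been seen, groups of all neighbouring miRNAs.

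Named were the members, their 3p strands, miRNAs sharing a seed, the 5 closest profiles, and of the DNA repair list those called in either pair and the 4 with the highest mean CPM. Abundant called miRNAs, the widest neighbouring groups, called markers and miR-200c-3p were named after their values were seen. The members and lists were chosen with earlier results of these data known. Hairpins and 3′ untranslated regions were those of GENCODE release 29 (GRCh38), and mature and hairpin sequences those of RefSeq (GRCh38.p14). Python 3.11.15 with pandas 2.3.3, scipy 1.17.1 and matplotlib 3.10.9 was used. One withheld item is not reported here.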

Additional observations from a re-analysis of the deposited data

Results flagged for a closer look

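The change of hsa-miR-183-5p from parental to radioresistant cells differed between the cell lines by the test of the difference itself. Its log2 fold change was larger in the RKO pair than in the HCT116 pair by 2.15 (SE 0.58, adjusted P = 0.00781 by edgeR's likelihood ratio test at a BCV of 0.2), with values of 2.26 and 0.07 within the pairs. The 4 levels were 11005 CPM in HCT116-R, 10294 in HCT116, 10432 in RKO-R and 2567 in RKO, and the library that stood apart was that of parental RKO, which was sequenced once. The difference was 1.93 (adjusted P = 0.0236) with library totals and 2.39 (adjusted P = 0.00229) with the size factors of DESeq2, and was not called at a BCV of 0.4 (adjusted P = 0.625).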

How the results depend on the processing

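In the HCT116 pair, the number of members called was 0 and became 1 at an unadjusted P under 0.05 and 2 at a BCV of 0.1. In the RKO pair it was 1, miR-183-5p, and became 0 at a BCV of 0.4 and at the estimated BCV. For the difference between the pairs it was 1 and became 2 at a BCV of 0.1 and 0 at a BCV of 0.4. The shares of all miRNAs called at an unadjusted P and at the other BCVs were not counted. The changed numbers of members therefore have no background beside them. The other scalings, filters and tests left the numbers of members called as they were. Between the cell lines the count of 0 became 1 in each of the exact tests, miR-183-5p in RKO over HCT116 and miR-182-5p in RKO-R over HCT116-R. The BCV cannot be estimated within a line, since each gave 1 library, and the estimated BCV reflects how far the pairs disagreed. These calls therefore depend on the value assumed. The direction of 3 log2 fold changes that were not called turned: -0.0037 for miR-182-5p in the RKO pair with library totals, 0.26 for miR-183-5p in RKO-R over HCT116-R and 0.08 for miR-96-5p in RKO over HCT116. The summed level moved beyond counting error without the antisense miRNAs miR-7-5p, miR-3529-3p, miR-423-5p and miR-3184-3p in the total, to 41649 CPM in HCT116-R, 25613 in HCT116, 22619 in RKO-R and 15166 in RKO, and with TMM-scaled sizes to 38674 in HCT116-R, 23168 in RKO-R and 13169 in RKO. Adding the 3p strands left the 12 member shares within counting error. No paired analysis by replicate was possible because the labels give no replicate numbers and each line had 1 library. Of other groups of neighbouring miRNAs, 0 in the hand-made list were wider in spread than the cluster in either pair. With all neighbours of the sequence table, where some hairpins were represented by a strand other than the guide, this became 4 in the HCT116 pair. It stayed 0 in the RKO pair, and with the filter met in either library the numbers became 6 and 1.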

Other observations

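Taken one at a time, the members had different nearest profiles over the 4 libraries, a comparison added after the data had been seen. hsa-miR-96-5p was closest to miR-222-3p, an abundant miRNA of the X chromosome pair miR-221 and miR-222, with a root mean square difference of 0.09 on the centred log2 scale. miR-222-3p was at 147221 CPM in HCT116-R, 104655 in HCT116, 85020 in RKO-R and 131162 in RKO, so that both were highest in HCT116-R and lowest in RKO-R. hsa-miR-183-5p was closest to miR-652-3p (0.35), which was at 1756, 2460, 2909 and 759 CPM in the same order and was also low in RKO. miR-590-3p (0.40), at 1633, 1746, 1276 and 670 CPM, came next. hsa-miR-182-5p was closest to miR-576-5p (0.18). These are likenesses over 4 libraries and were not tested.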
